A study of Mus musculus with 12 samples.

Results

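Long intergenic noncoding RNAs (lincRNAs) were examined in cultured mouse mammary fibroblasts that had been exposed to doxorubicin, to hydrogen peroxide or to water. The members were chosen by measured level and by name: a gene had to carry the class lincRNA in the deposited table and to reach 1 CPM (counts per 1000000 reads assigned to genes) in at least 3 of the 12 libraries. Imprinted and housekeeping noncoding RNAs (H19, Meg3, Rian, Mirg, Kcnq1ot1, Airn, Terc, Gas5 and the Snhg genes) were left out by name, which removed 9 genes. This gave 206 lincRNAs of 5629 lincRNA genes in the table, where 5414 others stayed under the minimum and 3230 of all were at 0 in every library. The whole table held 55487 genes, and 13280 of them passed the same minimum. Since the minimum could be met in any of the 4 groups, a gene high after treatment alone also entered, and the levels themselves are a description and not a finding.

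All 12 libraries came from 1 primary line of fibroblasts, which was grown from the mammary fat pad and taken from a healthy mouse of the B6 strain. All groups share this 1 line and its genotype, and neither the age nor the sex of the animal is given in the labels. The doxorubicin group received 100 nM of this topoisomerase II poison for 24 h, in a procedure the labels call DNA damage-induced senescence, and was lysed on day 7. The peroxide group received 750 uM of hydrogen peroxide for 2 h with 48 h of recovery, given 3 times in all, in a procedure called oxidative stress-induced senescence, and was lysed on day 6. The day 7 vehicle group and the day 6 vehicle group received water in the same 2 schedules, and vehicle cells were passaged to keep their density while treated cells were not said to be. Treatment and passaging therefore cannot be told apart. Each group held 3 libraries. The labels do not say that replicates were separate cultures, so the p-values below measure only the spread between these libraries, which may be technical.

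LincRNAs are transcribed by RNA polymerase II from loci of their own, are usually spliced and polyadenylated, and encode no known protein. Some build nuclear bodies or coat chromosomes, some act on the gene next to them or merely share its control region, and some are precursors from which microRNAs are cut. Most have no known role. In senescence, the lasting growth arrest that follows DNA damage or oxidative stress, the best known are transcripts next to cell cycle genes and transcripts that the transcription factor p53 switches on.

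The 206 lincRNAs were mostly unstudied and mostly rare. Of their names, 106 were Gm models, 67 were Rik clones and 33 were other symbols. Their median level, averaged over libraries, was 2.18 CPM, against 19.5 CPM for protein-coding genes past the same minimum. Only 8 averaged over 100 CPM and 27 reached 10 CPM or more, while 96 averaged under 2 CPM. At the minimum of 1 CPM, 98 were found in all 12 libraries and 14 in exactly 3 libraries. In GENCODE release M21 on GRCm38 (mm10), all 206 were found by identifier. Their exons covered a median of 2.36 kb, from 0.168 kb to 93.1 kb, and 33 had a single block of exon. Their median distance to the start of the nearest protein-coding gene was 23.9 kb, and 48 started within 5 kb of such a gene on the opposite strand, an arrangement called divergent here. An annotated microRNA on the same strand lay inside 14 members.

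Per kilobase of exon, the scale on which genes can be compared with each other, the median member had 1.15 CPM per kb. Gm10076 stood highest with 709 CPM per kb, followed by Malat1 with 388, Rps18-ps4 with 293, Gm28875 with 172 and 2900097C17Rik with 75.4 CPM per kb. Some of these levels cannot be assigned to 1 gene. Of its 31-base windows, Gm10076 shared 84.2% with other gene models, mainly Rpl41, a gene of the large ribosomal subunit, and Rps18-ps4 shared 49.6%, mainly with Gm10260. In all, 49 members shared over 20% of their windows with other gene models and 23 shared over 50%, and the exons of 69 overlapped those of another gene, a protein-coding one in 18 cases. The authors' treatment of such reads and of the strand was not stated in the labels. The label did not hold for 2 members, Gm47283 and Gm21860, which M21 places on chromosome Y as protein-coding genes. The Y-linked genes Ddx3y, Kdm5d and Eif2s3y were at 0 CPM in all libraries and Xist averaged 37.6 CPM, and Gm47283 shared 65.1% and Gm21860 100.0% of their windows with other gene models.

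The minimum divided lincRNAs of nearly the same level. Just inside it stood Mir181a-1hg and 4930509E16Rik, each with 1.003 CPM in the library ranked 3 of 12, and Gm31718 with 1.01 CPM. Just outside stood Gm48362 with 0.982 CPM, Gm36445 with 0.964 CPM and Gm27022 with 0.945 CPM.

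Depth, estimated from the CPM value of a single read, ran from 21.4 to 37.6 M reads (M, 1000000) in treated libraries and from 17.3 to 21.9 M in vehicle libraries. A floor of 3 reads then corresponds to 0.0798 to 0.173 CPM, which covers counting error only. Treated libraries held 21289 to 22771 genes with any reads and vehicle libraries 19080 to 19505. On the second principal component of all tested genes, which held 23.7% of the variance, peroxide replicate 2, day 7 vehicle replicate 3 and doxorubicin replicate 1 lay apart from the other libraries of their groups. All 9 fibroblast markers were past the minimum. Of 7 epithelial markers only Krt19 was, at a mean of 113 CPM, while Epcam, Cdh1, Krt5, Krt8, Krt14 and Krt18 averaged under 1 CPM. Of 6 leukocyte markers Cd68, Csf1r and Lyz2 were past it and Ptprc, Cd3e and Cd79a averaged under 1 CPM. Of 5 endothelial markers Tek alone was past it, and of 5 adipocyte markers Lpl, Fabp4 and Adipoq. Summed epithelial markers stood at 68.7 to 80.6 CPM after doxorubicin against 122 to 184 CPM in its vehicle, and 18.2 to 58.2 CPM after peroxide against 168 to 181 CPM in the day 6 vehicle. Summed leukocyte markers stood at 27.3 to 32.7 CPM after doxorubicin against 11.1 to 17.6 CPM in the day 7 vehicle, and 23.2 to 26.3 CPM after peroxide against 16.4 to 17.4 CPM in the day 6 vehicle. Summed endothelial markers stood at 34.4 to 45.2 CPM after doxorubicin against 12.5 to 16.4 CPM in the day 7 vehicle, and after peroxide at 22.7 to 28.1 CPM against 5.67 to 9.48 CPM in the day 6 vehicle. Summed adipocyte markers stood at 1392 to 1482 CPM after doxorubicin against 2237 to 2441 CPM in the day 7 vehicle, and at 2091 to 2194 CPM after peroxide against 977 to 1174 CPM in the day 6 vehicle. Pericyte and Schwann markers, 4 of 6 past the minimum, stood at 41.9 to 46.6 CPM after doxorubicin against 29.8 to 37.4 CPM in the day 7 vehicle, and after peroxide at 46.8 to 55.8 CPM against 30.7 to 34.1 CPM in the day 6 vehicle. Most of the epithelial sum was Krt19, of the endothelial sum Tek and of the adipocyte sum Lpl. Other markers could go against the sum of their list. Adipoq averaged 3.20 CPM after doxorubicin against 1.20 CPM in the day 7 vehicle. After peroxide, against the day 6 vehicle, Fabp4 averaged 27.5 against 50.6 CPM, Csf1r 9.05 against 13.8 CPM and Cspg4 4.19 against 18.4 CPM. Lyz2, at 13.3 against 1.81 CPM, went with its sum. The part of other cell types in the results was not tested.

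After doxorubicin the 206 lincRNAs changed in both directions. With limma on log2(CPM + 1) and a Benjamini-Hochberg adjusted p under 0.05 over all 13280 genes, 47 lincRNAs were higher (22.8%) and 40 lower (19.4%) than in the day 7 vehicle. Over all tested genes, 22.1% were higher and 27.8% lower, so the upward share of lincRNAs was near the background, and the downward share was under it over all levels but not among lincRNAs of 2 CPM or more, as given below by level. The balance also turned with the filter, to 35 higher and 37 lower with a minimum mean of 1 CPM and to 17 and 24 with a minimum of 5 CPM. Of the lincRNAs called, 54.0% were higher in the main fit, 48.6% with that minimum mean and 41.5% with the 5 CPM minimum. Of all genes called, 44.3%, 42.9% and 40.5% were higher in the same order. The median difference of lincRNAs was 0.11 log2 units, against -0.03 over all genes. A change of at least 1 log2 unit was called upward for 12 lincRNAs (5.83%; all genes 8.92%) and downward for 8 (3.88%; all genes 3.98%). Libraries of the treated and vehicle groups did not overlap for 54 lincRNAs above the vehicle (26.2%; all genes 26.1%) and for 50 below it (24.3%; all genes 33.6%). In bulk RNA, fewer cells with a transcript and less of it per cell cannot be told apart.

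After peroxide most lincRNAs that changed were higher. Against the day 6 vehicle, 89 were higher (43.2%) and 28 lower (13.6%), while of all tested genes 27.3% were higher and 23.4% lower. The median difference was 0.28 log2 units, against -0.01 over all genes, and 140 of the 206 lincRNAs had a difference above 0. By at least 1 log2 unit, 24 were higher (11.7%; all genes 7.33%) and 5 lower (2.43%; all genes 6.59%). Peroxide libraries lay above the vehicle libraries without overlap for 97 lincRNAs (47.1%; all genes 30.7%) and below for 34 (16.5%; all genes 29.3%).

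A difference was built into the choice of some members, because the minimum was met only where they were high. For 45 lincRNAs the 6 vehicle libraries alone missed the minimum, and of these 34 were called higher and 0 lower after peroxide, and 22 higher and 1 lower after doxorubicin. For 14 the 6 treated libraries alone missed it, and of these 0 were called higher and 6 lower after peroxide, and 0 higher and 5 lower after doxorubicin. Of these, 3 missed it on both sides. The 150 lincRNAs that met it on each side gave 55 higher and 22 lower after peroxide, and 25 higher and 35 lower after doxorubicin. The share of all genes was not counted for that split. It was counted for genes with a library at 1 CPM in each of the 4 groups, 145 of them lincRNAs. Of these lincRNAs, 35.9% were higher and 15.2% lower after peroxide (all such genes 25.4% and 24.6%). After doxorubicin 15.2% were higher and 23.4% lower (19.8% and 29.3%). By mean level, those higher after peroxide were 42 of 96 lincRNAs under 2 CPM (43.8%; all genes of that level 30.9%), 35 of 83 between 2 and 10 CPM (42.2%; 25.5%) and 12 of 27 at 10 CPM or more (44.4%; 27.4%), and those lower were 8.33% (9.79%), 16.9% (18.9%) and 22.2% (28.3%). After doxorubicin those higher were 25% (26.9%), 18.1% (22.6%) and 29.6% (20.9%) in the same order, and those lower 7.29% (13.5%), 27.7% (19.9%) and 37% (34.3%).

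The calls were also counted by sequence shared with other genes, without a test between the subsets. Among 115 lincRNAs that neither overlapped another gene's exons nor shared over 20% of their windows, 53 were higher after peroxide (46.1%) and 17 lower (14.8%), and 36 were higher after doxorubicin (31.3%) and 15 lower (13%). Among the 49 that shared over 20%, 13 were higher (26.5%) and 8 lower (16.3%) after peroxide, and 3 were higher (6.12%) and 13 lower (26.5%) after doxorubicin. Processed pseudogenes, a class whose sequence repeats that of expressed genes, had 32 of 616 higher (5.19%) and 149 lower (24.2%) after peroxide, and 26 higher (4.22%) and 311 lower (50.5%) after doxorubicin. Antisense genes, a further class of noncoding RNA, had 72 of 227 higher (31.7%) and 19 lower (8.37%) after peroxide, while protein-coding genes gave 28.2% and 24.2%. The plot of shares called by class shows these values side by side.

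Summed over the 206 lincRNAs, their part of each library was 5657, 5425 and 6080.3 CPM after doxorubicin, against 3922, 4453 and 4879 CPM in the day 7 vehicle. The sums were 7719, 6111 and 8764 CPM after peroxide, against 3956, 3884 and 3573 CPM in the day 6 vehicle. Treated libraries lay above their own vehicle libraries without overlap in both cases. Malat1 alone made up 51.2 to 65.5% of the sum in treated libraries and 32.8 to 42.7% in vehicle libraries. Without Malat1 the sums averaged 2538 ± 91.4 CPM after doxorubicin against 2623 ± 187 CPM in its vehicle (SD, n = 3 each), where single libraries overlap. After peroxide they averaged 3009 ± 21.4 CPM against 2466 ± 60.8 CPM in the day 6 vehicle (SD, n = 3 each), with no overlap. No test was made on these sums, because the members were chosen with results known. The number of lincRNAs at 1 CPM or more was 162 to 166 per doxorubicin library against 151 to 158 in its vehicle, and 182 to 184 per peroxide library against 143 to 149 in its vehicle. That count uses the same 1 CPM by which members were chosen. The vehicle libraries alone missed the minimum for 45 members and the treated libraries alone for 14. Part of the difference was therefore built in. The count of detected genes of all classes moved the same way, and its part in this difference was not tested.

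**Figure D1:**
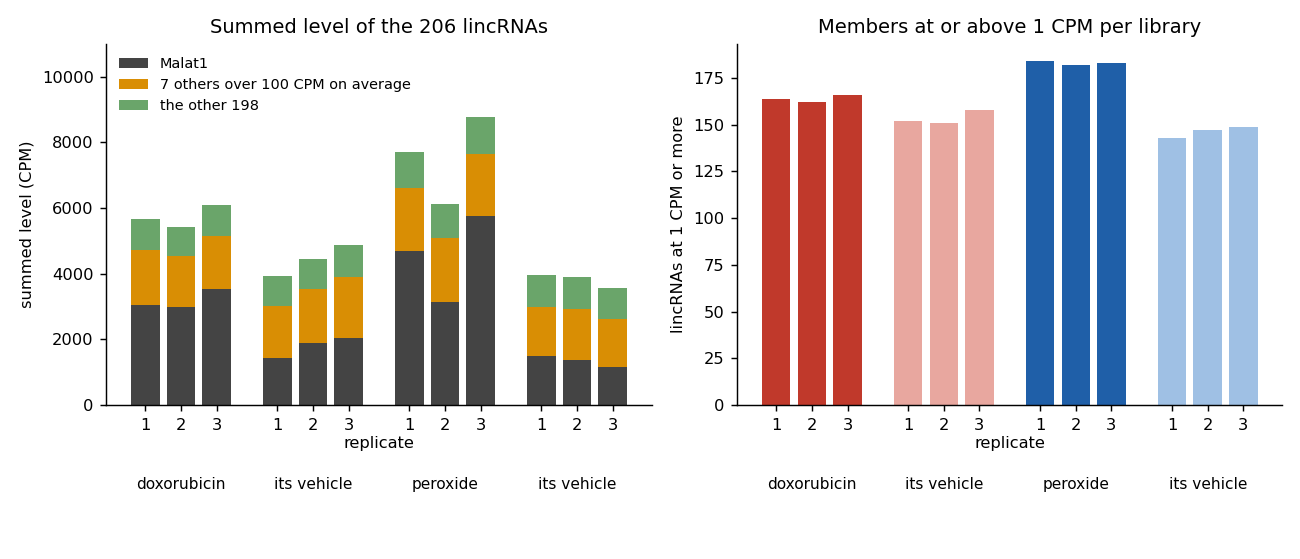
Left, summed level of the 206 lincRNAs in each library (CPM, vertical axis), divided into Malat1, the 7 other lincRNAs that average over 100 CPM, and the remaining 198. Right, number of lincRNAs at 1 CPM or more in each library, for doxorubicin, its day 7 vehicle, peroxide and its day 6 vehicle; the 3 peroxide libraries hold 182 to 184 and their vehicle libraries 143 to 149. The same 1 CPM was used to choose the members, so part of this difference was built in.

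The 2 treatments, each compared with vehicle libraries of its own, were then set side by side. Across the 206 lincRNAs the differences after doxorubicin and after peroxide had a Spearman correlation of 0.66, against 0.40 across all tested genes, given as descriptions over genes that are not independent replicates. Of the lincRNAs, 38 were higher after both treatments (18.4%; all genes 13.0%), by 0.23 to 1.98 log2 units after doxorubicin and 0.24 to 2.21 after peroxide. For some of these 38, among them Gm39323 and A530013C23Rik, the vehicle libraries alone missed the minimum, so an increase was built into their choice. Neither the share nor the correlation was counted without them. Lower after both treatments were 18 (8.74%; all genes 13.5%). Opposite calls were rare: Morrbid was higher after doxorubicin and lower after peroxide (0.485%; all genes 1.04%), and 5 lincRNAs were lower after doxorubicin and higher after peroxide (2.43%; all genes 2.56%). Past the threshold after doxorubicin alone were 25 (12.1%; all genes 19.8%), 8 upward and 17 downward, and after peroxide alone 55 (26.7%; all genes 20.6%), 46 upward and 9 downward. A call in one treatment and not in the other is not by itself a difference, which was tested separately below. No call was made for 64 lincRNAs in either treatment (31.1%; all genes 29.5%), among them the abundant Gm28875, whose differences were -0.03 and 0.04 log2 units, and the panel members Oip5os1, Jpx and Mir155hg.

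**Figure D2:**
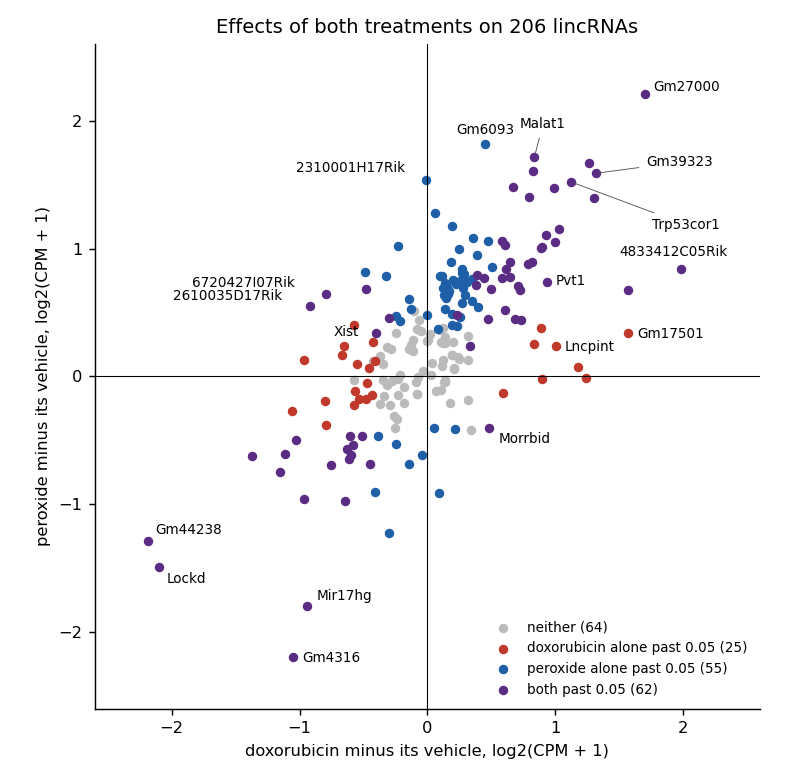
Each point is 1 of the 206 lincRNAs, with its difference after doxorubicin on the horizontal axis and after peroxide on the vertical axis, both as log2(CPM + 1) of the treated group minus its own vehicle. Colours give the calls: both treatments past an adjusted p of 0.05 (62), peroxide alone (55), doxorubicin alone (25) and neither (64).

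Among lincRNAs with known roles, the abundant architectural RNAs of the nucleus came first. Malat1 (chromosome 19, 5795690 to 5802672, minus strand, mm10), a transcript enriched in nuclear speckles, the bodies that store splicing factors, had 3033, 2984 and 3531 CPM in doxorubicin libraries, against 1441, 1899.5 and 2044 CPM in day 7 vehicle libraries. It had 4697, 3127 and 5743 CPM in peroxide libraries, against 1483, 1361 and 1171 CPM in day 6 vehicle libraries. All treated libraries lay above their vehicle libraries, with peroxide replicate 2 the lowest of its group. Malat1 was higher after doxorubicin (0.84 ± 0.20 log2 units, SE, adjusted p = 0.00520) and after peroxide (1.72 ± 0.20 log2 units, SE, adjusted p = 3.35e-05). The difference between these effects, doxorubicin minus peroxide, was also called at -0.88 ± 0.28 log2 units, SE, adjusted p = 0.0358.

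Neat1 (chromosome 19, 5824708 to 5845478, minus strand), the scaffold of paraspeckles and a p53 target, lies next to Malat1 on the same chromosome. It had 394, 305 and 323 CPM in peroxide libraries, against 218, 205 and 178 CPM in day 6 vehicle libraries, with no overlap, and was higher after peroxide (0.76 ± 0.20 log2 units, SE, adjusted p = 0.00935). Values after doxorubicin were 189.8, 292 and 311 CPM in doxorubicin libraries, against 156, 215 and 250.4 CPM in day 7 vehicle libraries. These overlap through doxorubicin replicate 1, and the difference did not pass the test (0.35 ± 0.20 log2 units, SE, adjusted p = 0.180). Without that library it was 0.57 log2 units and passed (adjusted p = 0.0232). Neat1 has a short and a long isoform from the same start, and gene-level CPM cannot separate them.

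Of 13 paraspeckle proteins tested, 0 were higher and 5 lower after doxorubicin, and 1 was higher and 10 lower after peroxide, against 22.1% higher and 27.8% lower of all genes after doxorubicin and 27.3% and 23.4% after peroxide. The medians of the list were -0.33 and -0.80 log2 units, and those of all genes -0.03 and -0.01. Nono, which with Sfpq forms the core of the body, had 360.1 ± 24.6 CPM after doxorubicin and 579.9 ± 25.6 CPM in its vehicle, and 431 ± 30.7 CPM after peroxide and 637 ± 20.7 CPM in its vehicle (SD, n = 3 each). Sfpq was lower in both, at -0.93 and -1.24 log2 units (adjusted p = 1.88e-04 and 2.07e-05). The exception was Hnrnph3, a splicing protein needed for paraspeckles, which was higher after peroxide at 0.46 log2 units (adjusted p = 0.00831).

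2900097C17Rik (chromosome 2, 156388065 to 156392979, minus strand) is the mouse Norad, a cytoplasmic RNA that is induced by DNA damage in human cells. It had 421, 459 and 485 CPM in peroxide libraries, against 313, 339 and 292 CPM in day 6 vehicle libraries, and was higher after peroxide (0.53 ± 0.08 log2 units, SE, adjusted p = 1.82e-04). After doxorubicin the values were 389, 365 and 364 CPM, against 339, 318 and 362 CPM in the day 7 vehicle, which do not overlap but did not pass (0.13 ± 0.08 log2 units, SE, adjusted p = 0.171). The difference between the effects did pass (-0.40 log2 units, adjusted p = 0.0197). Norad shares 44.7% of its windows with other models, mainly the pseudogene model Gm7292, so its level is uncertain.

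The X-inactivation centre was described by 3 members. Xist (chromosome X, 103460366 to 103483254, minus strand), which coats and silences 1 X chromosome in female cells, had 24.3, 26.8 and 27.6 CPM in doxorubicin libraries, against 30.7, 35.8 and 40.5 CPM in day 7 vehicle libraries. Those groups do not overlap, and Xist was lower after doxorubicin (-0.42 ± 0.13 log2 units, SE, adjusted p = 0.0212). The call was lost without doxorubicin replicate 1, day 7 vehicle replicate 2 or day 7 vehicle replicate 3 (adjusted p = 0.0613, 0.0549 and 0.0874). Xist had 51.5, 39.5 and 55 CPM in peroxide libraries, against 42.9, 36.8 and 39.9 CPM in day 6 vehicle libraries, which overlap and did not pass (0.27 ± 0.13 log2 units, SE, adjusted p = 0.112). Without peroxide replicate 2 it was 0.41 log2 units higher and passed (adjusted p = 0.0140). The effects of the treatments differed by -0.69 ± 0.19 log2 units, SE, adjusted p = 0.0179.

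Ftx (chromosome X, 103560907 to 103623790, minus strand), an activator of Xist in mouse cells that also holds Mir421 and Mir374b, had 3.6, 4.17 and 4.11 CPM in doxorubicin libraries, against 8.29, 6.56 and 8.12 CPM in day 7 vehicle libraries. It was lower after doxorubicin (-0.80 ± 0.16 log2 units, SE, adjusted p = 0.00167) and not called after peroxide (-0.20 ± 0.16 log2 units, SE). Jpx, another activator of Xist, had 0.963 ± 0.254 CPM after doxorubicin against 1.49 ± 0.304 CPM in the day 7 vehicle, and 1.28 ± 0.177 CPM after peroxide against 1.17 ± 0.518 CPM in the day 6 vehicle (SD, n = 3 each), with no call. Of 8 proteins that carry out silencing with Xist, 6 were lower after doxorubicin and 7 after peroxide, against 27.8% and 23.4% of all genes, and 0 were higher. Their medians were -0.56 and -0.62 log2 units. Lbr, the lamin B receptor that tethers the X chromosome to the nuclear rim, had the largest differences of that list, -1.46 and -2.53 log2 units (adjusted p = 7.39e-04 and 1.18e-05). Hnrnpu, which anchors Xist RNA to chromatin, was lower in both comparisons, at -0.67 log2 units in each.

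Trp53cor1 (chromosome 17, 29057430 to 29079179, minus strand), known as lincRNA-p21, is a p53 target that starts 11797 bases from Cdkn1a, the gene of the cell cycle inhibitor p21. It had 5.58, 4.2 and 4.43 CPM in doxorubicin libraries, against 1.87, 1.57 and 1.44 CPM in day 7 vehicle libraries, and 3.88, 5.12 and 3.68 CPM in peroxide libraries, against 0.853, 0.762 and 0.809 CPM in day 6 vehicle libraries. Treated and vehicle libraries were fully separate, and the lincRNA was higher after doxorubicin (1.12 ± 0.14 log2 units, SE, adjusted p = 4.91e-05) and after peroxide (1.52 ± 0.14 log2 units, SE, adjusted p = 4.10e-06). Cdkn1a itself averaged 981 ± 30.2 CPM after doxorubicin against 208 ± 59.2 CPM in the day 7 vehicle, and 606 ± 206 CPM after peroxide against 246 ± 11.5 CPM in the day 6 vehicle (SD, n = 3 each). The exons of Trp53cor1 overlap the opposite-strand model AC167363.1 over 44.1% of their length, and without a stated strand setting the reads of these models cannot be told apart.

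Lncpint (chromosome 6, 31082565 to 31220488, minus strand), a p53-induced transcript that binds the Polycomb repressor PRC2, had 2.57, 2.35 and 2.71 CPM in doxorubicin libraries, against 0.646, 0.776 and 0.872 CPM in day 7 vehicle libraries. It was higher after doxorubicin (1.01 ± 0.12 log2 units, SE, adjusted p = 4.48e-05). After peroxide it had 2.17, 1.42 and 1.78 CPM, against 1.31, 1.24 and 1.5 CPM in the vehicle, which overlap and did not pass (0.24 ± 0.12 log2 units, SE, adjusted p = 0.123), although without peroxide replicate 2 the same comparison passed at 0.34 log2 units (adjusted p = 0.0471). The effects differed between treatments (0.77 ± 0.17 log2 units, SE, adjusted p = 0.00739).

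Pvt1 (chromosome 15, 62037986 to 62378096, plus strand), a long transcript that starts 52595 bases from the start of the growth-driving oncogene Myc, was higher after both treatments. It had 34, 31.5 and 32.3 CPM in doxorubicin libraries, against 15.5, 16.6 and 17.7 CPM in day 7 vehicle libraries, and 37, 34 and 37.6 CPM in peroxide libraries, against 18.8, 21.7 and 23.6 CPM in day 6 vehicle libraries. The differences were 0.94 ± 0.09 log2 units, SE, adjusted p = 1.16e-05, and 0.74 ± 0.09 log2 units, SE, adjusted p = 6.51e-05. Myc had 14.4, 65.1 and 63.5 CPM in doxorubicin libraries, against 18.1, 22.4 and 9.8 CPM in their vehicle, a wide spread that did not pass (1.26 ± 0.59 log2 units, SE, adjusted p = 0.0954), and 12.7, 8.0 and 15.2 CPM in peroxide libraries, against 83.5, 37.8 and 22.9 CPM in the day 6 vehicle, where it was lower (-1.76 ± 0.59 log2 units, SE, adjusted p = 0.0263).

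Lockd (chromosome 6, 134929092 to 134956798, plus strand) and the short model Gm44238 fell the most after doxorubicin. Lockd starts 8691 bases from the start of Cdkn1b, which encodes the cell cycle inhibitor p27, and its locus acts as an enhancer of that gene in mouse erythroid cells. Lockd had 9.16, 7.88 and 6.89 CPM in doxorubicin libraries, against 38.2, 34.1 and 39.6 CPM in day 7 vehicle libraries, and 12.7, 15.1 and 11.8 CPM in peroxide libraries, against 34.6, 39.2 and 42.6 CPM in day 6 vehicle libraries. It was lower after doxorubicin (-2.10 ± 0.13 log2 units, SE, adjusted p = 1.83e-07) and after peroxide (-1.49 ± 0.13 log2 units, SE, adjusted p = 2.57e-06), and the effects differed by -0.61 ± 0.18 log2 units, SE, adjusted p = 0.0241. Cdkn1b was lower after doxorubicin, with 31.2 ± 1.99 CPM against 63.5 ± 8.52 CPM in the day 7 vehicle (SD, n = 3 each, adjusted p = 0.00840), and after peroxide had 34.9 ± 17.2 CPM against 43 ± 4.69 CPM in the day 6 vehicle (SD, n = 3 each), which did not pass. Gm44238, at 1.56, 0.82 and 0.71 CPM after doxorubicin against 7.5, 7.51 and 9.4 CPM in the day 7 vehicle and 2.11, 1.81 and 1.88 CPM after peroxide against 6.96, 6.35 and 5.27 CPM in the day 6 vehicle, overlaps Lockd on the opposite strand over 45.3% of its exons, so it is not a separate observation.

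Morrbid (chromosome 2, 128178319 to 128502765, minus strand), which represses the death gene Bcl2l11 in mouse myeloid cells, was the only member higher after doxorubicin and lower after peroxide. It had 35, 29.7 and 31 CPM in doxorubicin libraries, against 21.3, 21.5 and 24.9 CPM in day 7 vehicle libraries, and 25.5, 30.0 and 27.1 CPM in peroxide libraries, against 40.0, 36.7 and 33.8 CPM in day 6 vehicle libraries. No library overlapped in either pair of groups. The differences were 0.48 ± 0.10 log2 units, SE, adjusted p = 0.00244, and -0.41 ± 0.10 log2 units, SE, adjusted p = 0.00646, and the effects differed by 0.89 ± 0.14 log2 units, SE, adjusted p = 0.00147. The vehicle groups differed as well: Morrbid was lower in the day 7 vehicle than in the day 6 vehicle (-0.69 ± 0.10 log2 units, SE, adjusted p = 6.43e-04). With the median of all genes set equal in every library, the call after peroxide was lost (-0.34 log2 units, adjusted p = 0.0699).

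Several members are the primary transcripts from which microRNAs are cut, and the hosts of the miR-17-92 cluster and of a let-7 cluster are shown with their products. MicroRNAs silence messenger RNAs that pair with the seed, bases 2 to 8 of the mature strand. The mature strands were not measured here. They are given because these hosts are the best known of the set, are from RefSeq (GRCm38.p6), 5′ to 3′, and carry the seed in capitals. The main strands of the Mir17hg cluster (chromosome 14, plus strand) fall into 4 seeds, since miR-17 and miR-20a share AAAGUGC and miR-19a and miR-19b share GUGCAAA, while miR-18a has AAGGUGC and miR-92a has AUUGCAC.
miR-17-5p: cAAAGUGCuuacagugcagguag
miR-20a-5p: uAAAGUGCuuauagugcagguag
miR-18a-5p: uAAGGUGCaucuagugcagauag
miR-19a-3p: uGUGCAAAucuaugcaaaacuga
miR-19b-3p: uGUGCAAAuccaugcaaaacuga
miR-92a-3p: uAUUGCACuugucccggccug
The 3 let-7 strands inside 6720427I07Rik (chromosome 13, minus strand) all carry the seed GAGGUAG.
let-7a-5p: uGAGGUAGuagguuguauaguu
let-7f-5p: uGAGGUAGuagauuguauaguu
let-7d-5p: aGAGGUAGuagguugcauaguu

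Mir17hg (chromosome 14, 115042879 to 115046727, plus strand), a Myc and E2F target whose microRNAs favour proliferation, had 0.373, 0.904 and 0.51 CPM in doxorubicin libraries, against 1.97, 1.91 and 2.21 CPM in day 7 vehicle libraries, and 1.13, 0.649 and 0.841 CPM in peroxide libraries, against 6.14, 5.15 and 5.14 CPM in day 6 vehicle libraries. No libraries overlapped in either pair. The differences were -0.94 ± 0.15 log2 units after doxorubicin and -1.79 ± 0.15 after peroxide (SE), given without a test because it met the minimum only through vehicle libraries, and the day 7 vehicle was lower than the day 6 vehicle (-1.09 ± 0.15 log2 units, SE).

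6720427I07Rik (chromosome 13, 48532905 to 48546500, minus strand), whose let-7 products restrain growth genes such as Hmga2 and Ras, was called in opposite directions after the treatments. It had 2.84, 3.0 and 4.23 CPM in doxorubicin libraries, against 4.79, 6.88 and 8.16 CPM in day 7 vehicle libraries, with no overlap, and was lower after doxorubicin (-0.79 ± 0.23 log2 units, SE, adjusted p = 0.0142). After peroxide it had 9.65, 4.85 and 7.99 CPM, against 4.04, 4.19 and 4.62 CPM in the day 6 vehicle, and was called higher (0.64 ± 0.23 log2 units, SE, adjusted p = 0.0362). Peroxide replicate 2 lay close to the vehicle. The peroxide call was lost when peroxide replicate 1 or 3 or any of the 3 day 6 vehicle libraries was left out (adjusted p from 0.0586 to 0.139), and the doxorubicin call without day 7 vehicle replicate 3 (adjusted p = 0.0590). The difference between the effects was -1.44 ± 0.32 log2 units, SE, adjusted p = 0.00782.

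Of all 14 members with a microRNA inside, 3 were higher and 4 lower after doxorubicin, and 8 were higher and 1 lower after peroxide, against 22.1% higher and 27.8% lower of all genes after doxorubicin and 27.3% and 23.4% after peroxide. E130102H24Rik, which holds the hairpin of miR-101a, had 2.66, 3.37 and 2.85 CPM in peroxide libraries against 0.91, 1.05 and 1.44 CPM in their vehicle and was higher (0.90 ± 0.12 log2 units, SE, adjusted p = 1.12e-04), with no call after doxorubicin. 2900076A07Rik, which holds Mir1839, was called higher after both (0.39 ± 0.12 and 0.79 ± 0.12 log2 units, SE). Its doxorubicin call (adjusted p = 0.0170) was lost in 5 of 28 settings, including without day 7 vehicle replicate 1 or 2 (adjusted p = 0.0525 and 0.0594). Gm37233, which holds Mir5103, stood 0.75 ± 0.17 log2 units (SE) over the day 6 vehicle after peroxide, without a test because the vehicle libraries alone missed the minimum. Mir155hg, the host of the inflammatory miR-155, had 2.2 ± 0.442 CPM after peroxide against 1.53 ± 0.252 CPM in the day 6 vehicle (SD, n = 3 each) and passed in neither treatment. Without peroxide replicate 2, Mir155hg was 0.45 log2 units higher after peroxide and passed (adjusted p = 0.0262). Mir181a-1hg, a host of the miR-181 family, stood at the lower limit of detection. It had 0.14, 0.372 and 0.255 CPM after doxorubicin against 0.395, 1.0 and 1.33 CPM in the day 7 vehicle (-0.58 ± 0.22 log2 units, SE). This difference is given without a test, because the treated libraries alone missed the minimum, as did the vehicle libraries alone. Carmn, a smooth muscle and cardiac lincRNA, was higher after peroxide, with 8.61, 7.44 and 6.12 CPM against 5.4, 5.19 and 4.33 CPM in the day 6 vehicle (0.48 ± 0.13 log2 units, SE, adjusted p = 0.00967), and had no call after doxorubicin.

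**Figure D3:**
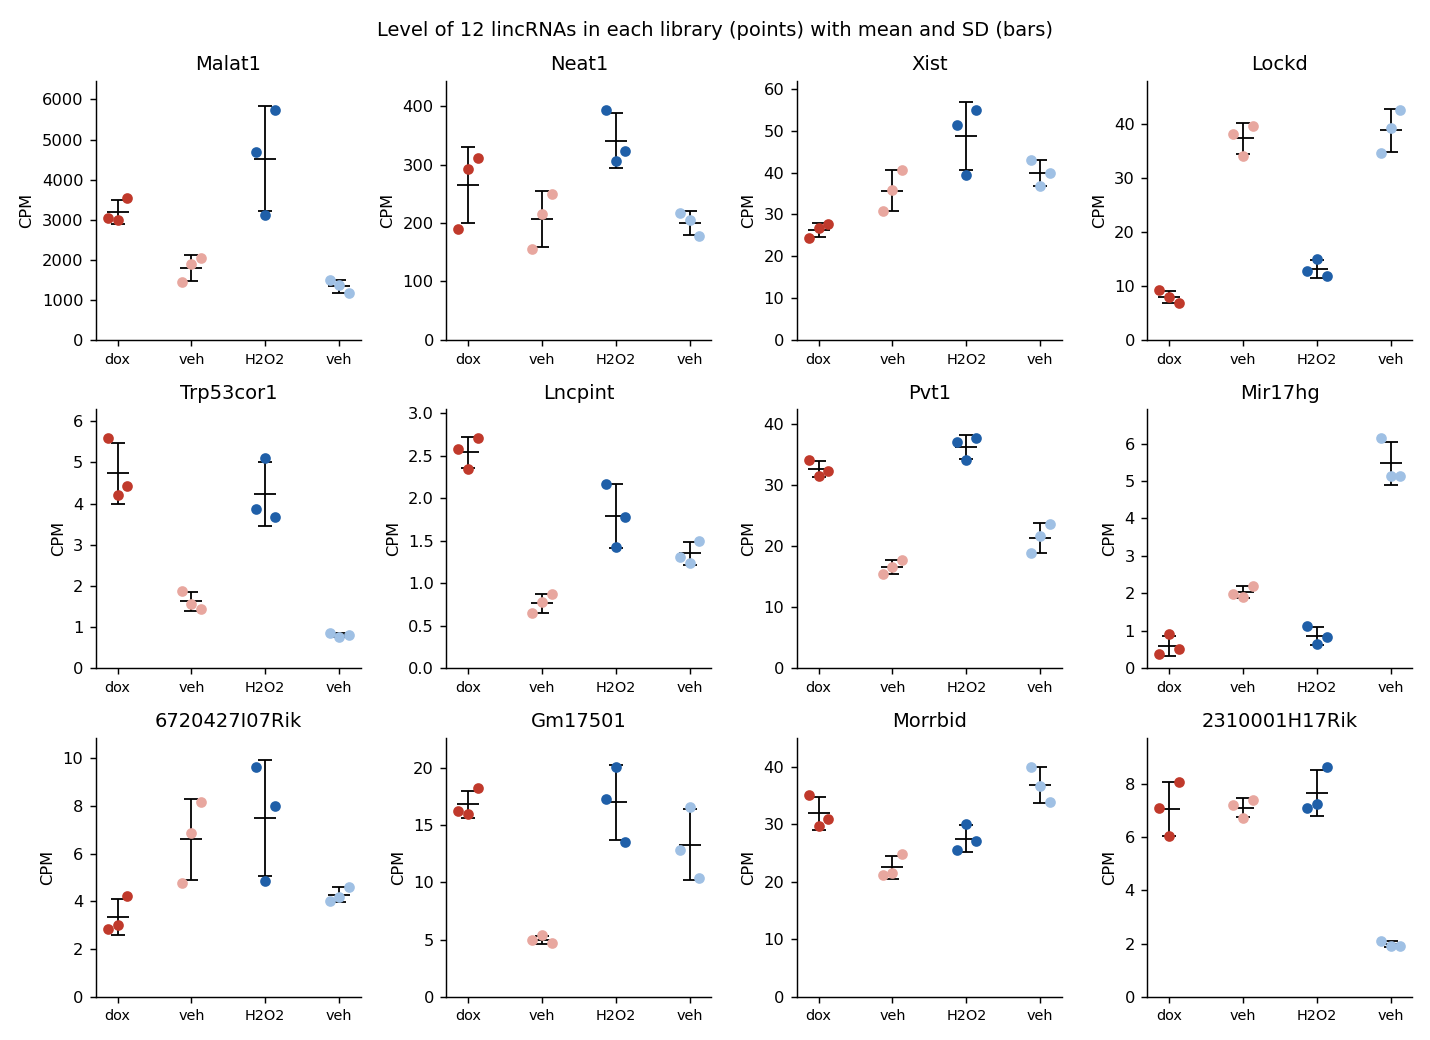
Level of 12 lincRNAs in each library (CPM, vertical axes from 0, points) with the mean and SD of the 3 libraries of a group (bars), for doxorubicin and its day 7 vehicle, then peroxide (H2O2) and its day 6 vehicle. Lockd and Mir17hg lie lower in both treated groups, Trp53cor1 and Pvt1 higher in both, and Morrbid higher after doxorubicin and lower after peroxide; 2310001H17Rik is at 1.91 to 2.10 CPM in the day 6 vehicle and at 6.04 to 8.65 CPM in the other libraries.

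By the rule for named genes, 8 lincRNAs had the largest increases after doxorubicin: 4833412C05Rik, Gm27000, Gm17501, Gm44275, Gm39323, Gm35248, Trp53cor1, given above, and A530013C23Rik. 4833412C05Rik (chromosome 7, 67784538 to 67804139, minus strand) had 8.48, 6.49 and 7.06 CPM in doxorubicin libraries, against 1.28, 0.866 and 1.18 CPM in day 7 vehicle libraries, a difference of 1.98 ± 0.13 log2 units, SE, adjusted p = 3.94e-07. It had 8.12, 7.35 and 6.54 CPM in peroxide libraries, against 3.41, 3.95 and 3.58 CPM in day 6 vehicle libraries, and was higher there too (0.84 ± 0.13 log2 units, SE, adjusted p = 2.76e-04). Both treated groups reached the same mean of 7.34 CPM, while the vehicles stood apart. Gm44275 was also higher after both treatments, with 6.12 ± 0.263 CPM after doxorubicin against 1.43 ± 0.445 CPM in the day 7 vehicle and 6.02 ± 0.956 CPM after peroxide against 3.41 ± 0.747 CPM in the day 6 vehicle (SD, n = 3 each).

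Gm35248 (chromosome 15, 38312293 to 38343139, plus strand) had 3.77, 3.62 and 4.28 CPM in doxorubicin libraries, against 1.18, 0.912 and 1.03 CPM in day 7 vehicle libraries, and 3.92, 3.46 and 2.94 CPM in peroxide libraries, against 0.341, 0.381 and 0.462 CPM in day 6 vehicle libraries. The differences were 1.26 ± 0.12 log2 units after doxorubicin and 1.67 ± 0.12 after peroxide (SE). They are given without a test, as are those of 2810433D01Rik, because the vehicle libraries alone missed the minimum. Its nearest protein-coding gene, Klf10, a growth-inhibiting transcription factor, was lower after both (-0.58 and -0.47 log2 units, adjusted p = 3.16e-04 and 0.00121). 2810433D01Rik had 1.79 ± 0.438 CPM after doxorubicin against 0.565 ± 0.142 CPM in the day 7 vehicle, and 2.78 ± 0.565 CPM after peroxide against 0.242 ± 0.155 CPM in the day 6 vehicle (SD, n = 3 each), with differences of 0.83 ± 0.16 and 1.60 ± 0.16 log2 units (SE). Gm27000 had 6.09, 8.89 and 11.2 CPM after doxorubicin against 1.94, 3.04 and 1.1 CPM in the day 7 vehicle (1.7 ± 0.32 log2 units, SE, adjusted p = 0.00124). It showed the largest peroxide increase of all members, 2.21 ± 0.32 log2 units (SE), with 13.5, 19.2 and 10.7 CPM after peroxide against 3.58, 1.22 and 2.44 CPM in the day 6 vehicle, but it shares 96.2% of its windows with Meg3, an imprinted lincRNA outside the member set, and cannot be told apart from it.

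Gm6093 (chromosome 13, 33562486 to 33569317, minus strand) and 2310001H17Rik (chromosome 6, 129208412 to 129238725, minus strand) were higher after peroxide. Gm6093 had 5.41, 5.06 and 7.52 CPM in peroxide libraries, against 1.25, 1.14 and 0.578 CPM in day 6 vehicle libraries (1.81 ± 0.22 log2 units, SE, adjusted p = 4.71e-05). With doxorubicin it had 2.24, 1.76 and 2.01 CPM, against 1.28, 0.593 and 1.89 CPM in the day 7 vehicle, which overlap and did not pass; without day 7 vehicle replicate 3 the comparison passed at 0.65 log2 units (adjusted p = 0.0358). 2310001H17Rik had 7.08, 7.26 and 8.65 CPM in peroxide libraries, against 2.1, 1.91 and 1.91 CPM in day 6 vehicle libraries (1.54 ± 0.12 log2 units, SE, adjusted p = 1.38e-06). It had 7.08, 6.04 and 8.08 CPM in doxorubicin libraries, against 7.2, 6.7 and 7.39 CPM in the day 7 vehicle, with no call (-0.01 ± 0.12 log2 units, SE). Here the day 6 vehicle stood apart from all other groups, and the vehicles differed by 1.45 ± 0.12 log2 units, SE, adjusted p = 1.55e-05.

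Of the largest decreases after Lockd and Gm44238, Gm13203 (chromosome 4, 148713703 to 148716581, plus strand) had 0.931, 0.612 and 1.05 CPM in doxorubicin libraries, against 4.09, 3.28 and 4.05 CPM in day 7 vehicle libraries, and 1.34 ± 0.133 CPM after peroxide against 2.62 ± 0.416 CPM in the day 6 vehicle (SD, n = 3 each). It was lower after doxorubicin (-1.37 ± 0.13 log2 units, SE, adjusted p = 9.11e-06) and after peroxide (-0.62 ± 0.13 log2 units, SE, adjusted p = 0.00250). 4933404O12Rik, Gm32856 and 2310040G24Rik were lower after doxorubicin, at -1.15, -1.11 and -1.06 log2 units, and the first 2 also after peroxide (-0.75 and -0.61). Gm4316 (chromosome 8, 123165255 to 123178765, plus strand) had 11, 12.9 and 11.2 CPM after doxorubicin against 24.1, 25.1 and 26.3 CPM in the day 7 vehicle, and 7.49, 7.82 and 6.01 CPM after peroxide against 36, 36.1 and 35.7 CPM in the day 6 vehicle. Its peroxide difference, -2.19 ± 0.10 log2 units, SE, adjusted p = 3.51e-08, was the largest decrease of any member, but 46.1% of its windows are shared, mainly with Miga1, so its level is uncertain. Gm47882 was lower in both, at -0.97 and -0.96 log2 units and shares 34.3% of its windows, mainly with Hnrnpf.

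2700038G22Rik and Epb41l4aos were lower after peroxide alone. 2700038G22Rik had 3.02, 2.66 and 2.34 CPM in peroxide libraries, against 8.47, 7.48 and 6.82 CPM in the day 6 vehicle (-1.23 ± 0.12 log2 units, SE, adjusted p = 9.98e-06). With doxorubicin it had 1.77, 2.34 and 2.33 CPM, against 2.76, 2.83 and 2.98 CPM in the day 7 vehicle, which do not overlap but did not pass (-0.30 ± 0.12 log2 units, SE, adjusted p = 0.0633). Epb41l4aos had 0.992, 1.14 and 1.36 CPM in peroxide libraries, against 3.75, 3.38 and 2.2 CPM in the day 6 vehicle (-0.91 ± 0.21 log2 units, SE, adjusted p = 0.00350), and no call after doxorubicin (0.09 ± 0.21 log2 units, SE). For both, the effects of the treatments differed (0.93 ± 0.17 and 1.0 ± 0.29 log2 units, SE, adjusted p = 0.00313 and 0.0237), and both were lower in the day 7 vehicle than in the day 6 vehicle.

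The difference between the treatments was tested directly as the doxorubicin effect minus the peroxide effect. It was positive for 13 lincRNAs (6.31%) and negative for 34 (16.5%), against 13.5% and 20.1% of all tested genes, so both shares were under the background. By at least 1 log2 unit it was positive for 6 (2.91%; all genes 7.69%) and negative for 10 (4.85%; all genes 3.46%). The median over lincRNAs was -0.26 log2 units, against -0.07 over all genes. The vehicles enter this contrast: of the 47 lincRNAs called, 29 (61.7%) also differed between the vehicle groups, against 2331 of 4461 (52.3%) among all genes called. The vehicle difference had the opposite sign in 29 of 29 lincRNAs and in 2284 of 2331 genes, which the make-up of the contrast favours, since it subtracts that difference.

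Between the vehicles, day 7 minus day 6, 33 lincRNAs were higher (16%; all genes 15.1%) and 27 lower (13.1%; all genes 12.9%), near the background in both directions. By at least 1 log2 unit, 2 were higher (0.971%; all genes 1.63%) and 6 lower (2.91%; all genes 1.76%). Without day 7 vehicle replicate 3 the counts were 19 higher and 25 lower. The largest differences were in 2310001H17Rik at 1.45 and 2610035D17Rik at 1.34 log2 units upward, and in Gm17501 at -1.23, 2700038G22Rik at -1.15 and 4833412C05Rik at -1.14 log2 units downward.

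2610035D17Rik (chromosome 11, 113043895 to 113201838, minus strand) had 1 of the largest negative differences. It had 7.55, 6.75 and 7.94 CPM in doxorubicin libraries, against 15.5, 15.5 and 13.6 CPM in day 7 vehicle libraries (-0.92 ± 0.16 log2 units, SE, adjusted p = 6.94e-04). It had 7.98, 8.34 and 8.18 CPM in peroxide libraries, against 4.55, 4.24 and 7.4 CPM in day 6 vehicle libraries (0.55 ± 0.16 log2 units, SE, adjusted p = 0.0139), a call lost without day 6 vehicle replicate 1 or 2 (adjusted p = 0.0574 and 0.0616). The effects differed by -1.47 ± 0.23 log2 units, SE, adjusted p = 0.00106. Gm11110, Gm37494 and Gm47469 were also called lower after doxorubicin (-0.48, -0.40 and -0.30 log2 units) and higher after peroxide (0.68, 0.34 and 0.46). The doxorubicin call of Gm11110 was lost in 10 of 28 settings, including without any 1 of 5 of the 6 libraries compared (adjusted p up to 0.117), and that of Gm47469 stood just inside the threshold (adjusted p = 0.0496).

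At the lowest levels, 1700017M07Rik had 1.35, 1.33 and 1.11 CPM after doxorubicin and was at 0 in all 3 day 7 vehicle libraries, where 3 reads would have been 0.137 to 0.154 CPM. Against that floor, taken as the largest per library value, its mean was at least 8.2-fold higher. Gm15728 had 1.49, 1.41 and 1.93 CPM in doxorubicin libraries, against 0.0987, 0.0912 and 0.103 CPM in day 7 vehicle libraries, all of the vehicle values being under their floors of 3 reads, with a difference of 1.24 ± 0.14 log2 units (SE), while after peroxide it had 0.586, 0.402 and 0.794 CPM against 0.91, 0.524 and 0.405 CPM in the day 6 vehicle, with no call. Gm28874 had 1.13, 1.7 and 1.87 CPM after peroxide against 0.967, 0.381 and 0.116 CPM in the day 6 vehicle with a difference of 0.81 ± 0.20 log2 units (SE), and 0.186, 0.346 and 0.425 CPM after doxorubicin against 0.888, 0.684 and 0.975 CPM in the day 7 vehicle. All 3 met the minimum only through treated libraries, so these differences are given without a test.

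LincRNAs often share a control region with the protein-coding gene beside them, so each was set beside its nearest such gene. That gene was tested for 160 of the 206. Of these 160 neighbours, 38 were higher and 46 lower after doxorubicin (all genes 22.1% and 27.8%), and 42 and 33 after peroxide (27.3% and 23.4%). After doxorubicin both partners were called in 42 pairs and in the same direction in 27 (64.3%). After peroxide the counts were 47 pairs and 27 (57.4%). Part of such agreement follows from the share of each direction among the calls, and the agreement expected from those shares was not computed. Divergent pairs, which start within 5 kb of each other on opposite strands, numbered 48, of which 11 had both partners called after doxorubicin (9 in the same direction) and 15 after peroxide (10 in the same direction). Across divergent pairs the differences of lincRNA and neighbour had a Spearman correlation of 0.35 after doxorubicin and 0.52 after peroxide, against 0.19 and 0.10 across the 112 other pairs. These are descriptions across pairs in the same libraries and were not tested, and exons of both partners overlapped in 4 pairs called after doxorubicin and 2 after peroxide.

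Gm17501 (chromosome 3, 145650312 to 145677580, plus strand) starts 331 bases from Ccn1, which encodes a secreted matrix protein, and points away from it. Gm17501 had 16.3, 16 and 18.2 CPM in doxorubicin libraries, against 4.93, 5.38 and 4.67 CPM in day 7 vehicle libraries, and was higher (1.57 ± 0.17 log2 units, SE, adjusted p = 1.79e-05). Ccn1 had 42.9, 206 and 58.7 CPM in doxorubicin libraries, against 26.5, 27.4 and 26.6 CPM in the day 7 vehicle (1.55 ± 0.42 log2 units, SE, adjusted p = 0.0106), with doxorubicin replicate 2 far above the rest. After peroxide Gm17501 had 17.3, 20.1 and 13.6 CPM, against 12.8, 16.6 and 10.4 CPM in the day 6 vehicle, which overlap and did not pass (0.34 ± 0.17 log2 units, SE, adjusted p = 0.114), but passed without peroxide replicate 3 or without day 6 vehicle replicate 2 (adjusted p = 0.0356 and 0.0303), and Ccn1 did not pass (0.20 ± 0.42 log2 units, SE). The 2 vehicles differed for the lincRNA (-1.23 ± 0.17 log2 units, SE, adjusted p = 3.68e-04) and not detectably for Ccn1 (-0.14 ± 0.42, adjusted p = 0.830).

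Gm39323 (chromosome 9, 44011735 to 44041059, minus strand) starts 2325 bases from Thy1, the fibroblast surface protein CD90, on the opposite strand. It was rare in vehicle cells, with 2.19, 1.86 and 2.35 CPM in doxorubicin libraries, against 0.148, 0.274 and 0.359 CPM in day 7 vehicle libraries, and 2.53, 3.09 and 2.2 CPM in peroxide libraries, against 0.227, 0.238 and 0.116 CPM in day 6 vehicle libraries. The differences were 1.32 ± 0.13 log2 units after doxorubicin and 1.59 ± 0.13 after peroxide (SE), given without a test because it met the minimum only through treated libraries. Thy1 had 219 ± 5.09 CPM after doxorubicin against 87.1 ± 4.97 CPM in the day 7 vehicle and 149 ± 16.8 CPM after peroxide against 90.8 ± 4.07 CPM in the day 6 vehicle (SD, n = 3 each), and was higher in both (1.32 ± 0.08 and 0.70 ± 0.08 log2 units, SE).

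Among other divergent pairs, Gm17300 and Rcc1, which encodes the nucleotide exchange factor of the GTPase Ran, were both lower after peroxide (-0.98 ± 0.15 and -1.35 ± 0.13 log2 units, SE) and after doxorubicin (-0.65 ± 0.15 and -0.73 ± 0.13), but 46.2% of Gm17300 overlaps Snhg3 on the opposite strand. Gm15728 starts 92 bases from Rfc5, a subunit of the clamp loader of DNA replication. After doxorubicin Gm15728, described above, stood 1.24 ± 0.14 log2 units (SE) over the vehicle, and Rfc5 was lower (-0.80 ± 0.15, adjusted p = 8.92e-04). After peroxide Rfc5 was lower (-1.32 ± 0.15, adjusted p = 1.99e-05) while Gm15728 was not called. A530013C23Rik, 1355 bases from Tmem189, had differences of 1.03 ± 0.16 and 1.15 ± 0.16 log2 units (SE), without a test for the same reason as Gm39323, and Tmem189 was called in neither (-0.12 and 0.05).

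**Figure D4:**
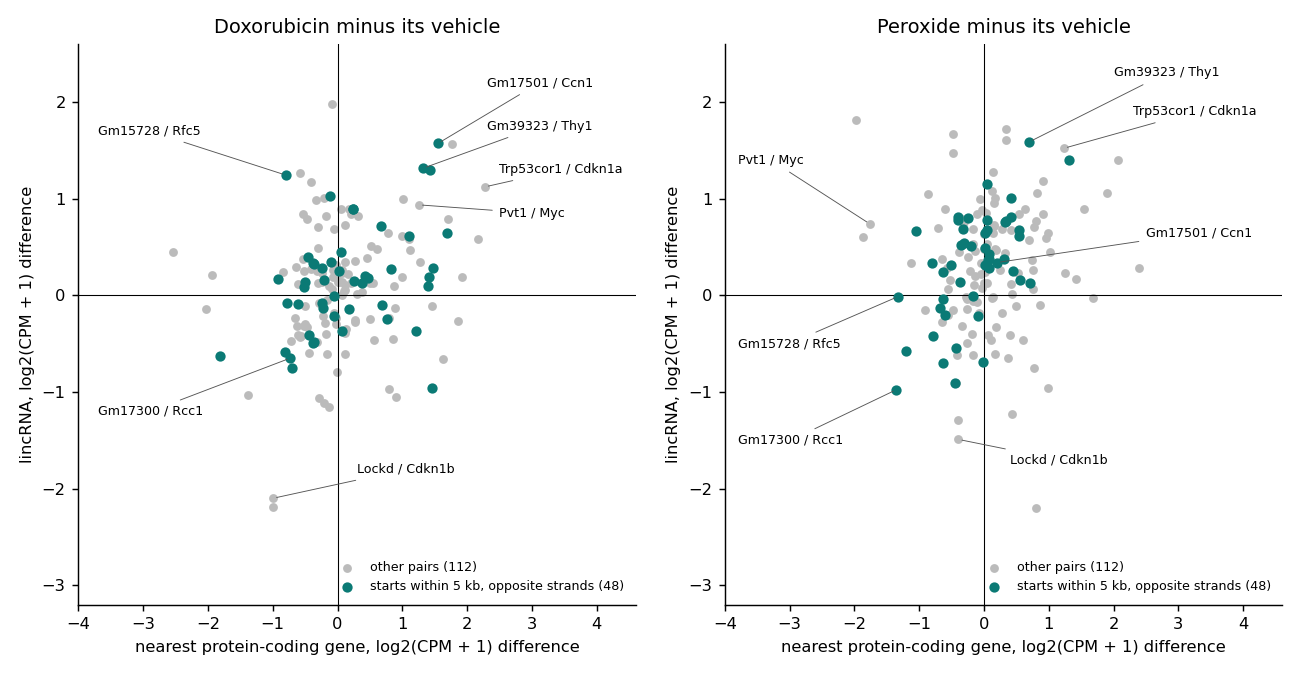
Each point is a lincRNA with its nearest protein-coding gene, for the 160 pairs in which both were tested. The horizontal axis gives the difference of the protein-coding gene and the vertical axis that of the lincRNA, in log2(CPM + 1), after doxorubicin (left) and after peroxide (right), each minus its own vehicle. Dark points are the 48 divergent pairs; Gm39323 and Thy1 lie to the upper right in both panels, and Gm15728 and Rfc5 on opposite sides of 0 after doxorubicin.

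Promoter sequence was read from RefSeq (GRCm38.p6, 250 bases before to 50 after each start) for 114 of the 206 lincRNAs, with 134 windows in all. Of 7 motifs searched on both strands, the p53 decamer, the repeated unit of the p53 response element, which reads the same way on both strands, was found in 14 of these windows (10.4%), against 8.36% of 32817 promoters of all genes. The 13 lincRNAs with the decamer included 12 that were higher after peroxide and 0 that were lower, and 6 that were higher and 0 lower after doxorubicin. Among the other 101 lincRNAs with a window, 41 were higher and 13 lower after peroxide, and 22 higher and 19 lower after doxorubicin. Over all 814 tested genes with the decamer, 33.8% were higher and 21.3% lower after peroxide and 27.6% and 25.4% after doxorubicin, against 27.6% and 24.1% and 22.4% and 27.2% of the 8922 genes without it. Of the 13, 4 met the minimum only through treated libraries, and all 4 of these were called higher after peroxide. This split was singled out of 7 motifs after its values were seen. A match is a description of letters and not a site. A530013C23Rik, Gm39323 and 2310001H17Rik are the members with a decamer that the rule for named genes named, and the first pair are among those 4.

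Their windows are shown 5′ to 3′ on the strand of the lincRNA, with the decamer in capitals, because they are the only named members in which it was found. In A530013C23Rik it lies 12 bases after the start, in 2310001H17Rik 22 bases after it, and in Gm39323, which has 2 annotated starts, 190 bases before the first and 134 before the second. A530013C23Rik and 2310001H17Rik each have another annotated start, whose window held no decamer and is not shown.
Gm39323 start 1 (chr9:44042135-44042434, minus strand): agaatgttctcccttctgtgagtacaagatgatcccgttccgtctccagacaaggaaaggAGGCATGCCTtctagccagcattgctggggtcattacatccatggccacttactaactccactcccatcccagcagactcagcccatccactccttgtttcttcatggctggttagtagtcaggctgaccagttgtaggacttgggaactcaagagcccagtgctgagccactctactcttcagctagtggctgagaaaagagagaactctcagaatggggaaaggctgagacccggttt
Gm39323 start 2 (chr9:44034610-44034909, minus strand): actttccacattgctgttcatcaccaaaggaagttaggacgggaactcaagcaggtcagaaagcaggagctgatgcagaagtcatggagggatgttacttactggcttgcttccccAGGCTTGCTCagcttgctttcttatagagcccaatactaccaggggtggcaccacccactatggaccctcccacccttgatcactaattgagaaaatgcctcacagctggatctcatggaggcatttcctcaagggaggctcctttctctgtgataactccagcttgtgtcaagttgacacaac
A530013C23Rik start 1 (chr2:167690509-167690808, plus strand): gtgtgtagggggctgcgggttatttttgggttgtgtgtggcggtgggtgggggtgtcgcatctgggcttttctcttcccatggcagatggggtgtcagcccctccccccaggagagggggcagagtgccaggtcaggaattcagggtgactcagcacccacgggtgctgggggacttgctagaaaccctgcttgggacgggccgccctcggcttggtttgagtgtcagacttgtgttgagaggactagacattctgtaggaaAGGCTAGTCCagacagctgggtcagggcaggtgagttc
2310001H17Rik start 1 (chr6:129238433-129238732, minus strand): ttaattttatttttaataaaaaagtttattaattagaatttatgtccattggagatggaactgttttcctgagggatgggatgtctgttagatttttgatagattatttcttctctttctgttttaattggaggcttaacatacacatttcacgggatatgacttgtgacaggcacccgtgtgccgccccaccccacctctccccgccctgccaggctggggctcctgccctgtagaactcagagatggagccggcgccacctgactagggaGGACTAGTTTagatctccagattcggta

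The other motifs were counted in the same windows. The core of the interferon-stimulated response element was in 4.48% of member windows (all promoters 3.43%), the STAT site TTCNNNGAA in 5.97% (8.29%), the antioxidant element TGACNNNGC in 14.9% (12.4%), and TTTGAA, the cell cycle homology region, in 15.7% (17.9%). Split by call after doxorubicin, the antioxidant element was in 21.6% of 37 windows of higher lincRNAs and 5% of 20 windows of lower ones. The STAT site was in 5.41% and 20% of them, and the 5% and 20% are 1 and 4 windows. After peroxide the antioxidant element was in 14.5% of 69 windows of higher lincRNAs and 0 of 14 windows of lower ones. The STAT site was in 4.35% and 14.3% of those. These splits were picked from those of all motifs searched and were not tested, and shares of all genes by call are not given. The E2F sites TTTGGCGC and TTTCGCGC were in 0 and 1 of the 134 windows (0.515% and 0.323% of all promoters). Matches of different motifs could overlap and were counted separately.

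The nuclear exosome degrades many lincRNAs soon after they are made. Of 15 tested exosome and adaptor genes, 1 was higher and 8 lower after doxorubicin, and 1 was higher and 10 lower after peroxide, where all genes gave 22.1% higher and 27.8% lower after doxorubicin and 27.3% and 23.4% after peroxide. The medians of the list were -0.25 and -0.54 log2 units. Exosc8, a subunit of the exosome ring, had 56.1 ± 2.48 CPM after doxorubicin against 118 ± 5.11 CPM in the day 7 vehicle, and 74.4 ± 3.98 CPM after peroxide against 176 ± 6.38 CPM in the day 6 vehicle (SD, n = 3 each). Dis3, its main nuclease, was lower in both, at -0.90 and -1.09 log2 units, as was Mtrex, the helicase that feeds RNA into it, at -0.62 and -0.39. Zfc3h1, an adaptor for polyadenylated nuclear RNA, was the gene higher after peroxide (0.59 log2 units, adjusted p = 0.00389), and Exosc4 the gene higher after doxorubicin, with 7.3, 32 and 29.3 CPM against 5.82, 6.92 and 2.67 CPM in the day 7 vehicle. The part of these genes in the lincRNA levels was not tested.

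Among the abundant members outside the panel, 3300005D01Rik (chromosome 17, 5798657 to 5803240, plus strand) had 95, 108 and 96.9 CPM in peroxide libraries, against 68.5, 72.6 and 72.8 CPM in day 6 vehicle libraries, and was higher after peroxide (0.48 ± 0.08 log2 units, SE, adjusted p = 5.00e-04). After doxorubicin its difference was 0.23 ± 0.08 log2 units (SE, adjusted p = 0.0320), a call lost in 10 of 28 alternative settings. Gm10076, at 279, 174 and 205 CPM after doxorubicin against 319.5, 327 and 373 CPM in the day 7 vehicle, was lower (-0.65 ± 0.14 log2 units, SE, adjusted p = 0.00270), and Rps18-ps4 was called lower too (-0.41 ± 0.14 log2 units, SE, adjusted p = 0.0307), a call lost in 10 of 28 settings, both with the shared sequence given above. Gm42047, with 81.3% of its windows shared, was called higher after both treatments, at 0.33 and 0.24 log2 units, and the peroxide call was lost in 9 of 28 settings, including without any 1 of the 6 libraries compared (adjusted p from 0.0593 to 0.0921). Oip5os1, known as Cyrano, which directs the decay of miR-7, had 76.3 ± 3.71 CPM after doxorubicin against 67 ± 14 CPM in the day 7 vehicle, and 76.5 ± 24.6 CPM after peroxide against 70.8 ± 7.16 CPM in the day 6 vehicle (SD, n = 3 each), and the libraries overlapped in both pairs of groups.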

How the data were processed

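RNA of 12 libraries was sequenced on an Illumina NovaSeq instrument, per the labels' protocols. The authors deposited 1 table of CPM, counts per 1000000 reads assigned to genes; the submitters' processing notes name bcl2fastq, DRAGEN and the mm10 build. Neither the counting method nor the strand setting or annotation release is given in the sources. The table held 55774 lines; 168 identifiers were repeated with identical values and kept once, leaving 55487 genes, and 0 value columns were left unmapped. Of the low values above 0, 74.7 to 79.9% per library were whole reads and the rest were not. No count model was therefore used, and depth was estimated from the value of a single read.

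Genes at 1 CPM or more in at least 3 of 12 libraries were fitted with limma 3.58.1 (R 4.3.3) on log2(CPM + 1), with a mean-variance trend over the 4 groups (8 residual degrees of freedom), two-sided, Benjamini-Hochberg adjusted over 13280 genes, threshold 0.05. The pseudocount of 1 CPM understates differences of rare genes. The model was tested on simulated data. Named members are those of a panel of 30 known lincRNA names (16 members), the 8 largest changes each way per treatment (mean of 2 CPM or more in whichever group is higher, libraries not overlapping), the 5 largest each way for the difference and 3 for the vehicles, the 8 most abundant, the 3 nearest the minimum, and 6 microRNA hosts. Other members were named after their values were seen. Members, lists and panel were chosen with earlier results of these data known. Shared sequence was counted as 31-base windows found in other gene models of GENCODE M21. Replicate numbers were not used to pair libraries, since the labels do not say whether same-numbered libraries share a culture. Deviations of same-numbered treated and vehicle libraries correlated at -0.31, 0.19 and -0.28 for doxorubicin and 0.14, 0.03 and -0.24 for peroxide. Python 3.11.15, numpy 2.4.6, pandas 2.3.3 and matplotlib 3.10.9 were used for tables and figures.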

Additional observations from a re-analysis of the deposited data

Results flagged for a closer look

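For 10 lincRNAs the estimated effects of the 2 treatments differed most (doxorubicin effect minus peroxide effect in limma, log2 units ± SE). These are the 5 largest each way among those with an adjusted p under 0.05. Positive differences were 1.26 ± 0.20 for Gm15728, 1.23 ± 0.24 for Gm17501, 1.15 ± 0.15 for Gm4316, 1.14 ± 0.18 for 4833412C05Rik and 1.10 ± 0.15 for 1700017M07Rik. Negative differences were -1.55 ± 0.17 for 2310001H17Rik, -1.47 ± 0.23 for 2610035D17Rik, -1.44 ± 0.32 for 6720427I07Rik, -1.36 ± 0.31 for Gm6093 and -1.30 ± 0.28 for Gm28874. Gm15728, 1700017M07Rik and Gm28874 met the minimum of 1 CPM only through treated libraries, so that a difference was built into their choice. Their values are descriptions and not the result of a test. The adjusted p of the others ran from 1.67e-04 (2310001H17Rik) to 0.00863 (Gm6093). The value of 1700017M07Rik depends on the pseudocount, since the day 7 vehicle was at 0. The vehicle groups also differed, with the opposite sign, for Gm15728, Gm17501, Gm4316, 4833412C05Rik, 2310001H17Rik and 2610035D17Rik; of the other 4, Gm6093 had the smallest vehicle difference at 0.16 ± 0.22 log2 units. For 2310001H17Rik the level was 7.07 ± 1.02 CPM after doxorubicin and 7.1 ± 0.355 CPM in the day 7 vehicle, and 7.66 ± 0.856 CPM after peroxide and 1.97 ± 0.114 CPM in the day 6 vehicle (SD, n = 3 each).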

How the results depend on the processing

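In every setting run, more lincRNAs were higher than lower after peroxide, and more differences between treatments were negative than positive. All tested genes leaned upward after peroxide too. Across refits with the 0.05 threshold, 50.6 to 59.2% of their calls were higher, against 69.0 to 80.7% of lincRNA calls. Their differences between treatments were also mostly negative, except with median-of-ratios scaling (52.0% positive) and by at least 1 log2 unit (7.69% positive, 3.46% negative). The balance of lincRNAs turned to more lower than higher after doxorubicin with a minimum of 5 CPM, with a minimum mean of 1 CPM (35 and 37) and with the median of all genes set equal. Over all tested genes, lower calls after doxorubicin outnumbered higher ones in these settings and in the main fit. Between vehicles the balance of lincRNAs turned with a minimum of 5 CPM, with no filter, by at least 1 log2 unit and without the libraries that lay apart. Of these vehicle settings, all genes had more lower than higher only by at least 1 log2 unit (1.63% higher, 1.76% lower). With a minimum of 5 CPM, which left 64 lincRNAs, the counts were 17 higher and 24 lower after doxorubicin, 29 and 13 after peroxide, 8 and 21 for the difference and 14 and 15 between vehicles. At an adjusted p under 0.01, 18 were lower after peroxide, 8 and 17 were called for the difference and 14 and 13 between vehicles. With a change of at least 1 log2 unit, the counts were 12 and 8 after doxorubicin, 24 and 5 after peroxide, 6 and 10 for the difference and 2 and 6 between vehicles. Array weights gave 61 negative differences. Between vehicles, 16 were higher and 18 lower with no filter, 21 and 26 without the 2 libraries that lay farthest apart, and 19 and 25 without day 7 vehicle replicate 3. Leaving out 1 library at a time gave 39 to 48 higher and 34 to 41 lower after doxorubicin, 77 to 89 and 22 to 28 after peroxide, 11 to 15 and 25 to 37 for the difference, and 19 to 36 and 19 to 28 between vehicles. With a replicate block the counts were 44 and 37, 86 and 24, 12 and 32, and 27 and 24 in the same order. The labels do not say whether same-numbered libraries share a culture, so the pairing is not used. Leaving out all 3 libraries apart, chosen after seeing the data, gave 49 and 39 after doxorubicin, 90 and 25 after peroxide and 24 and 29 between vehicles. Setting the median of all genes equal moved the median difference between treatments over all genes to -0.19, from -0.07, and left 41 and 42 calls after doxorubicin and 92 and 22 after peroxide. Among repeats of single named results, 3162 kept their side of the threshold, 85 lost the call and 39 gained it. Differences that were not called could change sign between settings, as that of Oip5os1 after peroxide did (-0.17 to 0.29 log2 units). The cause of these shifts was not tested. Depth limits lincRNAs under about 0.173 CPM, the highest floor of 3 reads.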
